A study of Mus musculus with 7 samples.

Results

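The genes described here are 33 immediate early and heat shock genes, chosen by symbol from a list drawn up with earlier results of these data in view, out of 24421 genes in the count table. Of these, 27 are early genes (the AP-1 subunits with ATF3 and MAFF, the EGR, NR4A and KLF factors, the BTG pair and a set of early feedback genes) and 6 are heat shock chaperone genes. All 33 were found in the table and passed the filter on low counts. They were measured by RNA sequencing in 7 libraries of cells that the labels call eosinophils, 3 from WT mice and 4 from mice of genotype IL5-Tg. The cells came from digested muscle 3 days after ntx, a term the labels leave unexplained, and were sorted as SiglecF+ CD45+ cells negative for NK1, Ly6G and CD3e, with CD11b in the gate as well. The series concerns Duchenne muscular dystrophy in mdx mice, but the sample labels give genotype as WT or IL5-Tg alone. No label read here names the strain, the animals' age or the promoter that drives the transgene. Nothing says that each library is from its own mouse, and p-values then speak of the spread among these 7 libraries, which may be technical.

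Immediate early genes are switched on within minutes of a stimulus, without new protein synthesis, when kinase pathways reach factors such as SRF and CREB that already sit at their promoters. Their products are mostly transcription factors, such as the FOS and JUN subunits of AP-1 and the EGR and NR4A families, together with feedback proteins that end the signal. Heat shock genes are controlled by HSF factors, which are released when unfolded proteins occupy chaperones such as HSP70 and HSP90. Both groups of genes are known to respond to cell activation and also to the enzymatic digestion and sorting of tissue.

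Library totals ranged from 11581365 to 20231509 counts. Il5 stood at 349, 447, 338 and 368 CPM (counts per 1e6 gene counts, with library sizes scaled by TMM) in IL5-Tg replicates 1 to 4, and had 23, 0 and 0 reads in the WT libraries. All 11 eosinophil markers examined, among them Siglecf, Ccr3 and Epx, had reads in every library, with summed levels of 3823 to 7460 CPM in WT and 5226 to 10010 CPM in IL5-Tg libraries. Of these 11, 3 passed by edgeR (adjusted p under 0.05), all higher in IL5-Tg (Prg2, Ear1 and Ear6), beside 0.338% of all tested genes. Groups did not overlap for 5, beside 9.36%. The log2 fold change was above 0 for 9 of them and below 0 for 2, Ccr3 (-0.59) and Il5ra (-0.97). Markers of other cells were present too. The 12 macrophage and monocyte markers summed to 4636 to 7128 CPM in WT and 5817 to 7912 CPM in IL5-Tg libraries, with none at 0. In WT replicate 3 Adgre1 gave 2459 of the 4636 CPM and was the only 1 of the 12 that was highest there. The mean log2(CPM + 1) of the 12 was lowest in that library, at 7.03, against 7.87 to 8.44 in the others. C1qa, for example, was at 68.4 CPM there, against 373 and 674 CPM in WT replicates 1 and 2. The 9 fibroblast markers summed to 203 CPM in WT replicate 3, where Lum, Pdgfra and Mfap5 had no read, against 3422 and 3729 CPM in the other WT libraries and 2314 to 5396 CPM in the IL5-Tg libraries. Mast cell and basophil markers summed to 51.0 to 78.4 CPM in WT and 3.07 to 21.1 CPM in IL5-Tg libraries, and neutrophil markers to 16.4 to 373 CPM in WT and 31.8 to 42.0 CPM in IL5-Tg libraries. Muscle fibre and satellite cell markers summed to 52.9 to 534 CPM in WT, lowest in WT replicate 3 with 5 of 10 at 0 (Myh4, Pax7, Myod1, Myf5 and Myog), and to 469 to 1379 CPM in IL5-Tg libraries. Of the 8 tested, 0 passed by edgeR, beside 0.410% of all tested genes, and 1 had an unadjusted p under 0.05, beside 9.04%. All 8 had a log2 fold change above 0. The groups did not overlap for 3 of the 8, beside 9.36% of all tested genes. Endothelial markers summed to 180 to 213 CPM in WT, with Tek, Egfl7 and Cldn5 at 0 in WT replicate 3, and to 158 to 303 CPM in IL5-Tg libraries, and lymphoid markers to 2.84 to 28.4 CPM over all 7. The part of other cells in the levels of the 33 genes was not tested beyond the marker covariate given further on. In a sum over sorted cells, fewer cells of a type and less RNA per cell cannot be told apart. Low counts piled up at 5, 8 and 12 reads per gene in the WT libraries and at 1, 1, 1 and 4 reads in the IL5-Tg libraries. This level was thus higher in every WT library than in any IL5-Tg library. The lowest count of any of the 33 genes was 40, for Egr3 in WT replicate 3, where low counts piled up at 12. The members of lowest count are therefore not far from that level. Of the 3 eosinophil markers that passed, Ear6 had 14 and 11 reads in WT replicates 2 and 3, where low counts piled up at 8 and 12.

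The study sorted these cells to learn how an excess of eosinophils affects damaged muscle. Of the 33 genes 0 passed the test between genotypes (edgeR's quasi-likelihood test, adjusted p under 0.05), and 7 had an unadjusted p under 0.05. Over all 12428 genes tested 0.410% passed (51 genes), 0.338% higher and 0.0724% lower in IL5-Tg libraries, so a count of 0 among 33 is near that background. DESeq2 called 1 of the 33 (Gadd45b, lower), beside 1.57% of all genes and 0.555% lower. Limma-voom called 0, beside 0.177% and 0.0483%. The 7 genes with an unadjusted p under 0.05 by edgeR were Jun, Jund, Nr4a3, Ier2, Ier5, Gadd45b and Dnajb1. All 7 were lower in IL5-Tg libraries. That is 21.2% of the members, beside 9.04% of all tested genes in either direction, 5.54% lower (689 genes) and 3.49% higher. The count of 7 depended on the libraries and the model. It was 2 with the title start (the first 2 characters of the sample title, described further on) as a block. It was 3 without IL5-Tg replicate 1 or replicate 3 and 4 without IL5-Tg replicate 2 or WT replicate 2. Without IL5-Tg replicate 4 it was 10, 9 of them lower, and without WT replicate 1 it was 11, 10 of them lower. The shares of all tested genes with an unadjusted p under 0.05 in these other fits were not taken, so these counts have no background beside them.

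The 2 groups of genes differed in how they varied. The median log2 fold change was -0.15 over the 27 early genes, of which 11 were above 0, 1 (Ier3) stood at 0.00 and 15 were below, and -1.22 over the 6 heat shock genes, all 6 of them below 0. The median over all tested genes was 0.03. The ratio of the highest to the lowest library (CPM + 1) had a median of 6.13 for the heat shock genes, 2.47 for the early genes and 2.71 for all tested genes. Within the IL5-Tg group alone these medians were 3.74, 1.66 and 1.68, and within WT 4.07, 1.73 and 2.18. By these medians the heat shock genes had the widest spread of the 3 sets in both genotypes. The median of the early genes was below that of all tested genes in WT and close to it in IL5-Tg libraries. Single heat shock genes differed: within IL5-Tg their ratios (on CPM) ran from 1.44 for Hsph1 and 1.72 for Hspa8 to 17.9 for Hspa1b. The early gene Nr4a3 reached 4.71 there.

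**Figure D1:**
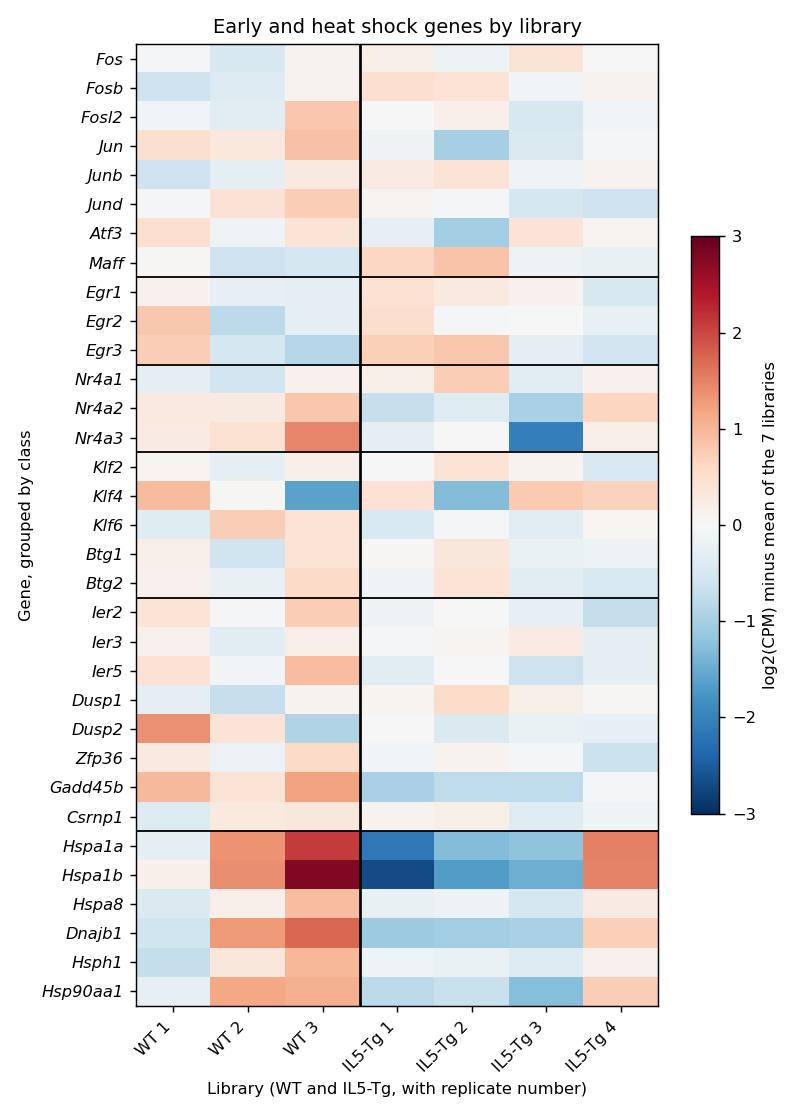
Level of each of the 33 genes (rows, grouped by class from AP-1 at the top to heat shock at the bottom) in each of the 7 libraries (columns, WT left of the line), as log2(CPM) minus the gene's mean over libraries. Hspa1a and Hspa1b have the strongest colours, and in the heat shock rows WT replicates 2 and 3 and IL5-Tg replicate 4 are the 3 highest libraries.

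**Figure D2:**
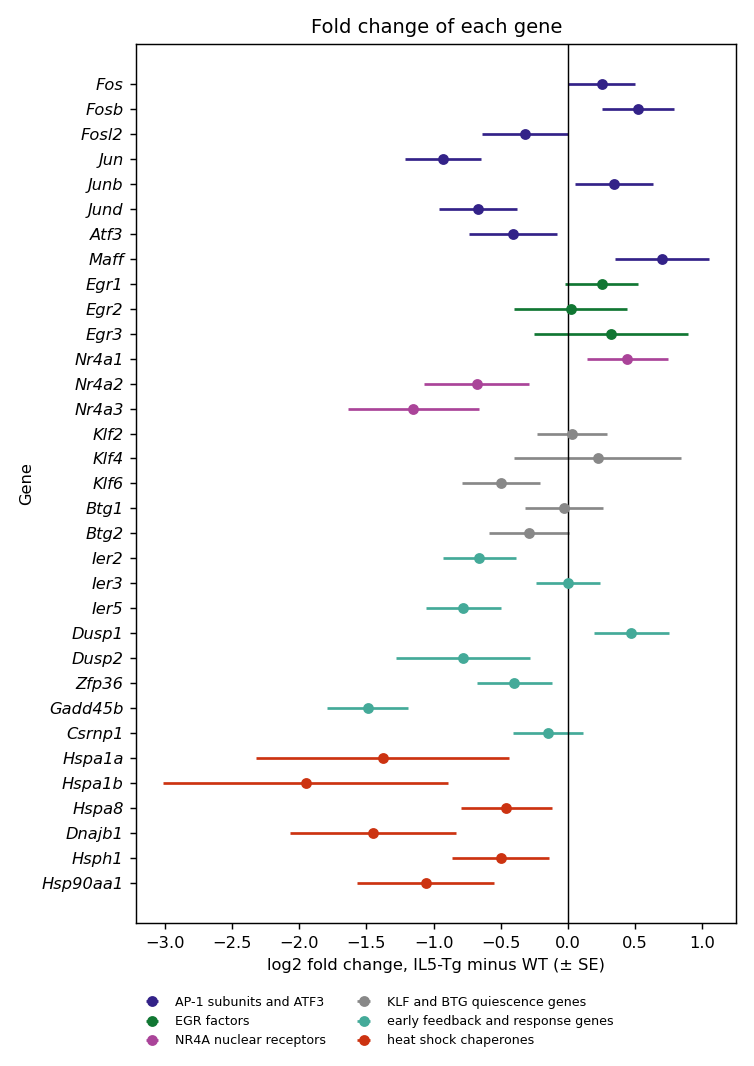
Log2 fold change of IL5-Tg minus WT (horizontal axis) with its standard error (bars) for each of the 33 genes, coloured by class. The 6 heat shock genes lie below 0 with the widest bars for Hspa1a and Hspa1b, and Gadd45b has the lowest value among early genes, at -1.49.

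The heat shock genes were followed from the inducible HSP70 pair outward. Hspa1a and Hspa1b encode the stress-inducible HSP70 chaperone and lie side by side on chromosome 17, at 34969190 to 34972156 and 34956436 to 34959238 on the minus strand (mm10, GENCODE vM21). Hspa1a reached 64.6, 202 and 338 CPM in WT (replicates 1, 2, 3) and 17.8, 32.0, 34.3 and 225 CPM in the IL5-Tg libraries (replicates 1, 2, 3, 4). Hspa1b reached 150, 352 and 920 CPM in WT libraries and 21.1, 42.4, 49.1 and 378 CPM in the IL5-Tg libraries, in the same order. For both genes 3 IL5-Tg libraries lay below every WT library, while IL5-Tg replicate 4 lay above WT replicates 1 and 2. The log2 fold change of Hspa1b was -1.95 ± 1.06 (SE; edgeR adjusted p = 0.688) and that of Hspa1a was -1.38 ± 0.94 (SE; edgeR adjusted p = 0.781), so neither passed. A single library set much of the size of these values. For Hspa1b the log2 fold change was -3.66 without IL5-Tg replicate 4 (edgeR adjusted p = 0.166) and -1.03 without WT replicate 3 (edgeR adjusted p = 0.864). Leaving out both libraries, which were picked on these values, gave -2.74 (edgeR adjusted p = 0.0253), with Hspa1b and Gadd45b called, beside 0.603% of all genes and 0.0714% lower. Within the IL5-Tg group the gap between replicate 4 and the other 3 libraries exceeded Dixon's 95% critical value for Hspa1a, Hspa1b and Dnajb1, beside 5.52% of all tested genes.

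The reads of this pair cannot be divided with certainty. Of all 42-base windows in the annotated transcripts of Hspa1a, 60.8% also occur in transcripts of Hspa1b, and 42 bases is the length of each read of a pair in this study. Summed, the 2 genes stood at 215, 554 and 1259 CPM in WT libraries and at 38.9, 74.3, 83.4 and 603 CPM in IL5-Tg libraries, which is the same order of libraries. The DNA before their starts is also nearly the same, and it is shown because the levels of the pair had the same order over the 7 libraries. The 150 bases before the RefSeq start (build GRCm38.p6) are chr17:34972157-34972306 for Hspa1a and chr17:34959239-34959388 for Hspa1b, both on the minus strand, and 149 of the 150 bases are identical. Capitals mark GAANNTTC or TTCNNGAA, pairs of facing units of the heat shock element that HSF binds, and CCAAT or its reverse complement ATTGG, and Hsph1 is added below from base 150 to base 26 before its start (chr5:149636362-149636486, minus strand).
Hspa1a: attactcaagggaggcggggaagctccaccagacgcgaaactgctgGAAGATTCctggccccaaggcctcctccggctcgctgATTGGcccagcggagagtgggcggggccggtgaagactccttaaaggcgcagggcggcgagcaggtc
Hspa1b: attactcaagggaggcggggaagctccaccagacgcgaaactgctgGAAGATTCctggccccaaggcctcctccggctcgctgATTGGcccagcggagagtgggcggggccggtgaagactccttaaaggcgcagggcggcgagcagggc
Hsph1: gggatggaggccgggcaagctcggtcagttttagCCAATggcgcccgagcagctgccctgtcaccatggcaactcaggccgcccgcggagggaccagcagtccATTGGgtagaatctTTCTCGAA
The unit pair lies 104 to 97 bases before the start in Hspa1a and Hspa1b and 33 to 26 bases before it in Hsph1, where it falls inside the gene as GENCODE vM21 annotates it. Within 250 bases before the start, 3 of the 4 heat shock genes with an entry in the RefSeq promoter table held either form (Dnajb1 did not), beside 12.8% of all 32851 promoters of that length, and all 4 held CCAAT or ATTGG, beside 33.8%. Both forms read the same on either strand, and the table holds a second start for Hsph1, not shown. A gene counted if any of its starts held the form, while the share is over single promoters. The nearly identical stretches of Hspa1a and Hspa1b were counted separately. A match is a description of the letters only. Hspa8 and Hsp90aa1 had no entry.

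Dnajb1, an HSP40 co-chaperone that hands unfolded proteins to HSP70, followed a similar pattern. It was at 104, 382 and 518 CPM in WT libraries and at 74.1, 76.7, 80.1 and 258 CPM in IL5-Tg libraries. Here IL5-Tg replicate 4 lay above WT replicate 1 but below WT replicate 2. The WT mean was 335 ± 211 CPM (SD, n = 3). The IL5-Tg mean was 122 ± 90.4 CPM (SD, n = 4), and the fold change on the log2 scale, -1.45 ± 0.62 (SE), did not pass (edgeR adjusted p = 0.544). Hsp90aa1, the inducible cytosolic HSP90, was at 325, 858 and 811 CPM in WT libraries and at 224, 245, 160 and 649 CPM in IL5-Tg libraries. Again 3 IL5-Tg libraries lay below all WT libraries and replicate 4 lay among them (log2 fold change -1.06, edgeR adjusted p = 0.600).

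The remaining pair had smaller fold changes. Hspa8, the constitutive HSP70 of all cells and the most abundant of the 6 per length, was at 913, 1387 and 2369 CPM in WT libraries and at 1064, 1122, 860 and 1478 CPM in IL5-Tg libraries. Hsph1, a large chaperone that exchanges the nucleotide of HSP70, was at 26.6, 55.2 and 87.5 CPM in WT libraries and at 40.1, 37.9, 33.2 and 47.9 CPM in IL5-Tg libraries. Their groups overlapped and their log2 fold changes were -0.46 and -0.50 (edgeR adjusted p = 0.799 and 0.790). Of the 42-base windows of Hspa8 and Hsp90aa1 transcripts, 41.5% and 49.0% also occur in transcripts of other genes, mostly Gm15459 and Gm12346, so their counts too could hold or lack shared reads.

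**Figure D3:**
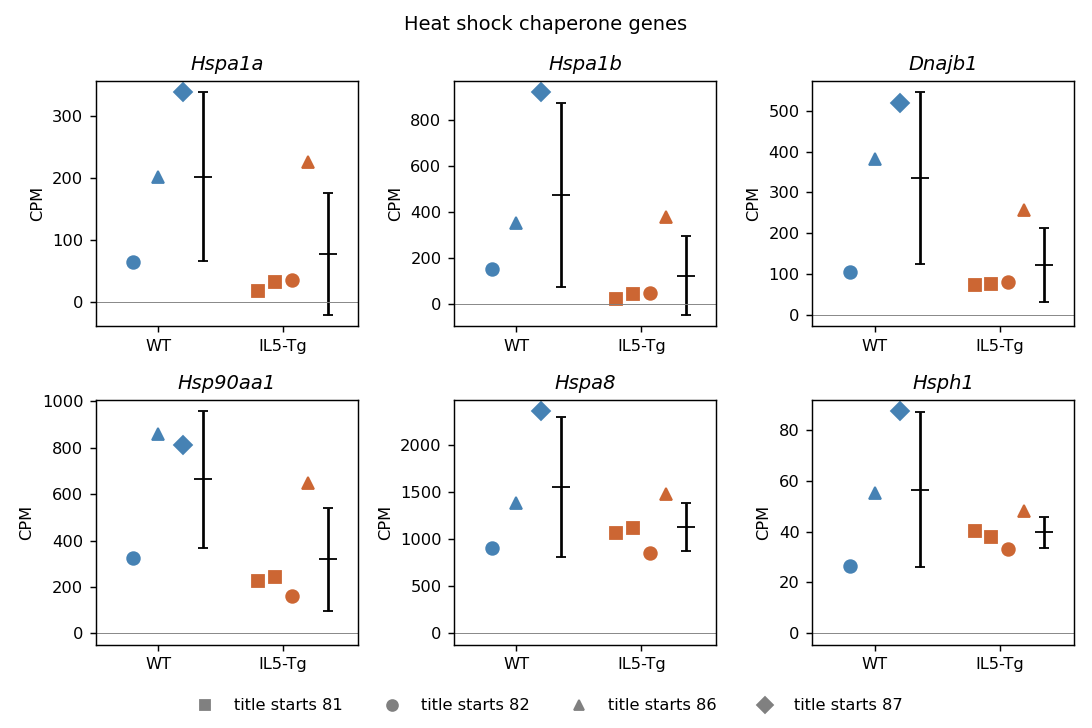
CPM of the 6 heat shock genes in each WT (blue) and IL5-Tg (orange) library, with mean and SD beside the points and the marker showing the first 2 characters of the sample title. In all 6 panels the triangle and diamond libraries (WT replicates 2 and 3 and IL5-Tg replicate 4) are the 3 highest.

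IL5-Tg replicate 4 and replicates 2 and 3 of WT were the 3 highest libraries for 6 of 6 heat shock genes, for 1 of 27 early genes (Klf6) and for 1.63% of all tested genes. This pattern was noticed after the values were seen. The sample titles of WT replicate 2 and IL5-Tg replicate 4 start with 86, and those of WT replicate 1 and IL5-Tg replicate 3 start with 82. The labels do not say what this start stands for. Between the libraries whose titles start with 86, IL5-Tg differed from WT by 0.15 for Hspa1a, 0.10 for Hspa1b, 0.09 for Hspa8, -0.57 for Dnajb1, -0.21 for Hsph1 and -0.40 for Hsp90aa1 (log2 ratio of CPM, 1 library each). Between those that start with 82 the same differences were -0.91, -1.61, -0.09, -0.38, 0.32 and -1.02. The median over the 6 genes, on log2(CPM + 1), was -0.05 for the first pair of libraries and -0.63 for the second. With the title start as a block the median log2 fold change went from -1.22 to -0.42. Starts 81 (IL5-Tg replicates 1 and 2) and 87 (WT replicate 3) occur in 1 genotype each. The block fit therefore compares genotypes only within starts 82 and 86, and WT replicate 3 does not enter that comparison. The part of the title start in the heat shock levels was not tested. Among these 3 libraries the fibroblast markers summed to 203 CPM in WT replicate 3, the lowest of the 7, to 3729 CPM in WT replicate 2 and to 5396 CPM in IL5-Tg replicate 4, the highest.

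Among the early genes, levels per length were highest for Junb, at a mean of 1651 CPM per kb of exon over the 7 libraries (range 1041 to 2152). Jund followed at 993 (617 to 1579), Dusp1 at 852 (516 to 1206), Zfp36 at 458 (283 to 659) and Btg2 at 371 (262 to 538). The ranges of each pair of neighbours in this order overlapped. At the low end stood Dusp2 (4.90), Egr2 (4.27) and Egr3 (1.72 CPM per kb). Fos itself was at 291 CPM per kb (205 to 380).

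AP-1 subunits pair FOS with JUN proteins on DNA, and their genes were mixed in direction. Junb, a JUN-family subunit, was at 2395, 3027 and 4477 CPM in WT libraries and at 4380, 4951, 3363 and 3996 CPM in IL5-Tg libraries, with overlapping groups (log2 fold change 0.34, edgeR adjusted p = 0.841). Jund, its broadly expressed relative, was at 1519, 2144 and 2634 CPM against 1658, 1503, 1102 and 1029 CPM, also overlapping (log2 fold change -0.67, edgeR adjusted p = 0.530). Of the windows of Jund transcripts 49.0% also occur on the opposite strand in Gm11175, and the strand setting of the counting is not given. Fosl2, which encodes FRA2, was at 1337, 1138 and 2494 CPM in WT libraries and at 1392, 1566, 1020 and 1337 CPM in IL5-Tg libraries, so that WT replicate 3 alone stood above the rest.

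Jun, the classical partner of FOS, was at 313, 279 and 412 CPM in WT libraries and at 202, 113, 166 and 219 CPM in IL5-Tg libraries. Its groups did not overlap, yet it did not pass (log2 fold change -0.93 ± 0.28 SE, edgeR adjusted p = 0.307). Fos was at 651, 481 and 722 CPM in WT libraries and at 759, 610, 893 and 673 CPM in IL5-Tg libraries, with overlap (log2 fold change 0.25, edgeR adjusted p = 0.880). Fos and Jun thus lay on opposite sides of 0 in the same libraries, neither past the test. Of the others, Fosb had a log2 fold change of 0.52, the stress factor gene Atf3 of -0.41 and the small MAF factor gene Maff of 0.70 (edgeR adjusted p = 0.650, 0.827 and 0.629).

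CPM of the 2 groups did not overlap for 3 of the 33 genes (Jun, Nr4a3 and Gadd45b), or 9.09%, which is near the 9.36% of all tested genes that did not overlap. All 3 were lower in IL5-Tg libraries, beside 4.60% of all tested genes lower and 4.76% higher.

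The EGR genes, zinc finger factors typical of growth factor and antigen receptor signals, were low. Egr1 was at 118, 89.9 and 89.0 CPM in WT libraries and at 147, 131, 118 and 76.7 CPM in IL5-Tg libraries. Egr2 was at 23.9, 7.92 and 11.3 CPM against 19.8, 13.1, 13.9 and 11.7 CPM, and Egr3 lay between 3.78 and 11.9 CPM. Their groups overlapped, with log2 fold changes of 0.25, 0.02 and 0.32.

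The NR4A genes encode nuclear receptors without a classical ligand that are induced with other early genes. Nr4a1 was at 525, 425 and 692 CPM in WT libraries and at 714, 1050, 504 and 696 CPM in IL5-Tg libraries (log2 fold change 0.44, edgeR adjusted p = 0.778). Nr4a3 was at 175, 202 and 405 CPM in WT libraries and at 121, 147, 35.3 and 166 CPM in IL5-Tg libraries. For Nr4a3 every IL5-Tg library was below every WT library, by a small margin for replicate 4 and a large one for replicate 3 (log2 fold change -1.15 ± 0.49 SE, edgeR adjusted p = 0.528; without WT replicate 3 it was -0.66). Nr4a2 lay between 16.1 and 55.8 CPM (log2 fold change -0.68).

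KLF and BTG genes are linked to quiescence and restraint of growth. Btg1 was at 1261, 728 and 1469 CPM in WT libraries and at 1147, 1398, 971 and 992 CPM in IL5-Tg libraries. Btg2, an antiproliferative partner of the mRNA deadenylation machinery, was at 1076, 850 and 1477 CPM against 920, 1305, 776 and 718 CPM. Klf6 was at 559, 1191 and 949 CPM against 520, 698, 578 and 751 CPM. The 3 genes overlapped between groups, with log2 fold changes of -0.03, -0.29 and -0.50. Klf2, a quiescence factor, was at 0.03. Klf4 was at 0.22 and ranged from 9.26 CPM in WT replicate 3 to 54.1 CPM in WT replicate 1.

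The early feedback genes held both the early gene with the lowest fold change and genes above 0. Gadd45b, a stress-induced protein that acts on MAP kinase signalling, is annotated at chr10:80930073-80932204, plus strand. It was at 386, 260 and 453 CPM in WT libraries and at 99.6, 116, 116 and 189 CPM in IL5-Tg libraries, so the groups were apart. The WT mean was 366 ± 98.2 CPM (SD, n = 3). The IL5-Tg mean was 130 ± 39.8 CPM (SD, n = 4), and the difference, -1.49 ± 0.30 (SE) on the log2 scale, did not pass (edgeR adjusted p = 0.0834). Gadd45b passed under 3 of 17 other settings. These were DESeq2 (adjusted p = 0.00296), edgeR without the low-count filter (adjusted p = 0.0384, beside 0.447% of all genes and 0.0994% lower) and edgeR on counts divided by each library's most common low count (adjusted p = 0.0359, beside 0.909% and 0.254% lower). Over the 17 its adjusted p ranged from 0.00296 to 0.794, the latter with the title start as a block (log2 fold change -1.10). Between the libraries whose titles start with 82 the difference was -1.74, and between those that start with 86 it was -0.46.

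Dusp1, a phosphatase that switches MAP kinases off, was at 2269, 1707 and 2962 CPM in WT libraries and at 2916, 3994, 3103 and 2797 CPM in IL5-Tg libraries. The overlap came from WT replicate 3 alone, and the log2 fold change was 0.47 ± 0.28 (SE; edgeR adjusted p = 0.720). Zfp36, which encodes tristetraprolin, a protein that speeds the decay of cytokine mRNAs, was at 1879, 1362 and 2288 CPM against 1459, 1663, 1484 and 982 CPM (log2 fold change -0.40). Ier5, an early gene that has been linked to HSF1, was at 742, 519 and 1042 CPM against 436, 548, 360 and 446 CPM (log2 fold change -0.78 ± 0.28 SE, edgeR adjusted p = 0.440; without WT replicate 3 it was -0.47).

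Ier2 was at 580, 428 and 728 CPM in WT libraries and at 393, 440, 365 and 264 CPM in IL5-Tg libraries, overlapping only between WT replicate 2 and IL5-Tg replicate 2 (log2 fold change -0.66, edgeR adjusted p = 0.506). Ier3, a regulator of cell survival, was the steadiest of the 33 genes, between 108 and 160 CPM in all 7 libraries, a ratio of 1.48. Dusp2 lay between 4.63 and 22.6 CPM and Csrnp1 between 184 and 310 CPM, with log2 fold changes of -0.78 and -0.15. WT replicate 3 was the highest library for 12 of the 27 early genes and 5 of the 6 heat shock genes, together 51.5% of the members, beside 20.8% of all tested genes. In the pathway lists described further on it was highest for 48.3% (MAP kinase, SRF and CREB) and 57.1% (CREB coactivators) of genes. For other immediate early genes and other chaperones the shares were 24.4% and 25.9%. In WT replicate 3 10877 genes had reads, against 12759 to 14391 in the other libraries. Without that library 5 of the 33 genes had an unadjusted p under 0.05 by edgeR, 3 of them lower, and 0 passed after adjustment. The unadjusted share over all tested genes in that fit was not taken.

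**Figure D4:**
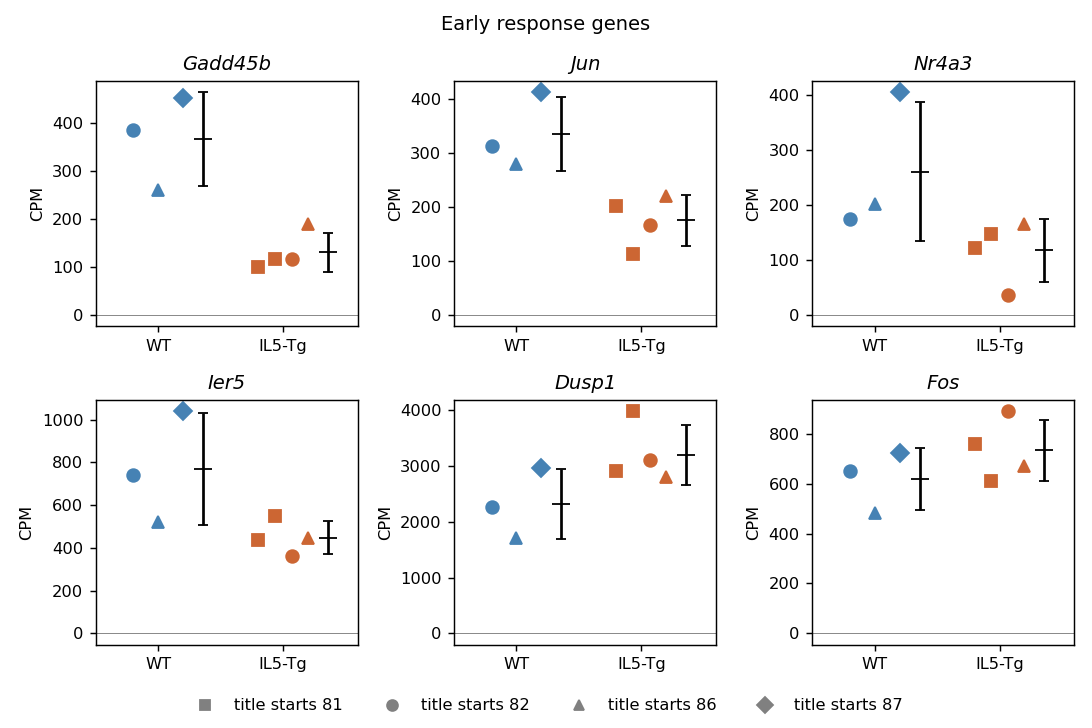
CPM of 6 early genes in each WT (blue) and IL5-Tg (orange) library, with mean and SD beside the points and the marker showing the first 2 characters of the sample title. Gadd45b, Jun and Nr4a3 have groups that do not overlap, Ier5, Dusp1 and Fos have groups that do.

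Stretches before the starts of 4 early genes are shown, marked with the CRE, through which such genes are known to respond, or with other promoter motifs. The 4 genes were chosen after the values were seen: Fos as the prototype, Dusp1 and Btg2 as abundant genes with a full CRE, and Gadd45b as the gene with the largest early difference. Capitals mark TGACG (the core of the CRE, the site of CREB) and TATAAA in Fos, TGACGTCA (the full CRE) in Dusp1 and Btg2, and TATAAA and CCAAT in Gadd45b. The stretches end at the base before the RefSeq start, or for Dusp1 at base 48 before it, and are chr12:85473740-85473889 (plus strand), chr17:26508520-26508622 (minus strand), chr1:134079156-134079345 (minus strand) and chr10:80929941-80930090 (plus strand), build GRCm38.p6. In GENCODE vM21 the whole Dusp1 stretch and the end of the Gadd45b stretch lie inside the annotated gene, whose outermost start is farther upstream.
Fos: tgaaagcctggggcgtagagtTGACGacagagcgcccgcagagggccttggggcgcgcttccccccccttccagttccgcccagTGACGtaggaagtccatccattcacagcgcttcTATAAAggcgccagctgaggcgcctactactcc
Dusp1: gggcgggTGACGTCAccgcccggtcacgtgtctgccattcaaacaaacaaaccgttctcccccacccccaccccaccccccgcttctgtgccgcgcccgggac
Btg2: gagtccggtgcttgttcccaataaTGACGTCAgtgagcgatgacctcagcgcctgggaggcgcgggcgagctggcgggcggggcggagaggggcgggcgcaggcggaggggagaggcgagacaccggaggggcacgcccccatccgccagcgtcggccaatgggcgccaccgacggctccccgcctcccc
Gadd45b: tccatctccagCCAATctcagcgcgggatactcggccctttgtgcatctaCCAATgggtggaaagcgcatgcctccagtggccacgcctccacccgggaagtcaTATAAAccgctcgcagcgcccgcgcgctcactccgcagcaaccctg
Within 250 bases before the start, the full CRE was found in 3 of the 28 members with an entry (Maff, Btg2 and Dusp1), beside 1.55% of all promoters. Its core TGACG, on either strand and including those full sites, was found in 16 of the 28, beside 17.8%. The EGR site GCGGGGGCG, on either strand, was found in 7 of the 28, beside 2.57%, and TGANTCA, an AP-1 site, in 1, beside 6.75%. The CArG box of SRF was found in Egr2 and Zfp36, beside 1.47% of all promoters. TATAAA was found in 3 of the 28 (Fos, Btg1 and Gadd45b), beside 7.59%. Either form of the heat shock unit pair was found in 6 of the 28 (Fosl2, Jun, Egr2, Hspa1a, Hspa1b and Hsph1), 3 of them heat shock genes, beside 12.8% of all promoters. CCAAT or ATTGG was found in 14 of the 28, Jun among them, beside 33.8%. Of the 2 full-CRE genes shown, Dusp1 had a log2 fold change of 0.47 and Btg2 of -0.29, and neither passed. Egr1, Egr3 and Ier2 had no entry. In these counts a member counted if any of its starts held the site, while the share is over single promoters. Members with more than 1 start, such as Egr2 and Csrnp1, had more chances of a match. The counts and the shares are therefore not strictly alike.

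Other genes of the same pathways were read from lists drawn up together with the 33 genes. Of 41 tested immediate early genes outside the 33, 2 rose, 39 did not pass and 0 fell. Over all tested genes 0.338% passed higher and 0.0724% lower. The median log2 fold change of the 41 was 0.01. Hbegf, a growth factor that binds the EGF receptor, was at 14.3, 10.2 and 7.47 CPM in WT libraries and at 63.2, 64.9, 36.1 and 38.2 CPM in IL5-Tg libraries (log2 fold change 2.24 ± 0.36 SE, edgeR adjusted p = 0.0306). Cited2, a co-regulator that competes for CBP and p300, was at 68.3, 65.0 and 78.0 CPM against 143, 222, 297 and 231 CPM (log2 fold change 1.66 ± 0.28 SE, edgeR adjusted p = 0.0404). In both genes every IL5-Tg library lay above every WT library. Neither passed by limma-voom (adjusted p = 0.258 and 0.226), and each passed in 1 of the 7 fits that left out a library, the fit without WT replicate 3. DESeq2 called both and, in addition, Nfkbia, which encodes the NF-kappaB inhibitor (log2 fold change -1.24, adjusted p = 0.0118), where edgeR gave an adjusted p of 0.148.

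For the 3 lists that follow, the shares over all tested genes were 0.410% passing by edgeR and 9.04% with an unadjusted p under 0.05. Of 29 genes of the MAP kinase, SRF and CREB pathway none passed by edgeR (4 had an unadjusted p under 0.05), with a median of -0.09. Creb1, the CRE-binding factor, had the smallest p, at 67.5, 56.6 and 102 CPM in WT and 24.5, 29.7, 27.8 and 41.7 CPM in IL5-Tg libraries (log2 fold change -1.28, edgeR adjusted p = 0.133). Creb1 passed by DESeq2 (adjusted p = 0.0308). Of 27 other heat shock factors, chaperones and co-chaperones none passed by edgeR (3 had an unadjusted p under 0.05), and the median was -0.06. Hspa4l was at 0.87 and the co-chaperone gene Bag1 at -0.56 (edgeR adjusted p = 0.405 and 0.465). Of 7 CREB coactivator and cAMP responsive genes none passed by edgeR (0 had an unadjusted p under 0.05), with Crtc2 at -0.47 and Pde4b at -0.36. DESeq2 called Creb1 alone in these 3 lists, beside 1.57% of all genes, and limma-voom called 0, beside 0.177%.

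Set side by side, the mean log2(CPM + 1) of the 27 early genes ranged from 7.82 to 8.21 in WT and from 7.72 to 7.97 in IL5-Tg libraries. That of the 6 heat shock genes was 7.16, 8.45 and 9.10 in WT libraries and 6.36, 6.69, 6.55 and 8.31 in IL5-Tg libraries. By this mean the 27 other chaperone genes stood lowest, at 5.27, in WT replicate 3, where the 6 heat shock genes stood highest. There 3 of the 27 had no read, and Serpinh1 was at 0.662 CPM, against 303 and 385 CPM in WT replicates 1 and 2. Summed, however, the 27 stood highest in WT replicate 3 (4146 CPM), then in IL5-Tg replicate 4 (4115 CPM) and WT replicate 2 (3829 CPM). Hsp90ab1 alone gave 1741, 1560 and 1386 CPM of these sums, in that order, against 906 of 3427 CPM in WT replicate 1. The order of the sums thus rests largely on that gene. Of the 27, 7 were highest in WT replicate 3 and 9 in WT replicate 1. With the level of fibroblast and macrophage markers as a covariate, the median log2 fold change was -0.97 for the heat shock genes and -0.02 for the early genes. Of the 7 members with an unadjusted p under 0.05 in that edgeR fit 3 were lower, and the share over all tested genes there was not taken.

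**Figure D5:**
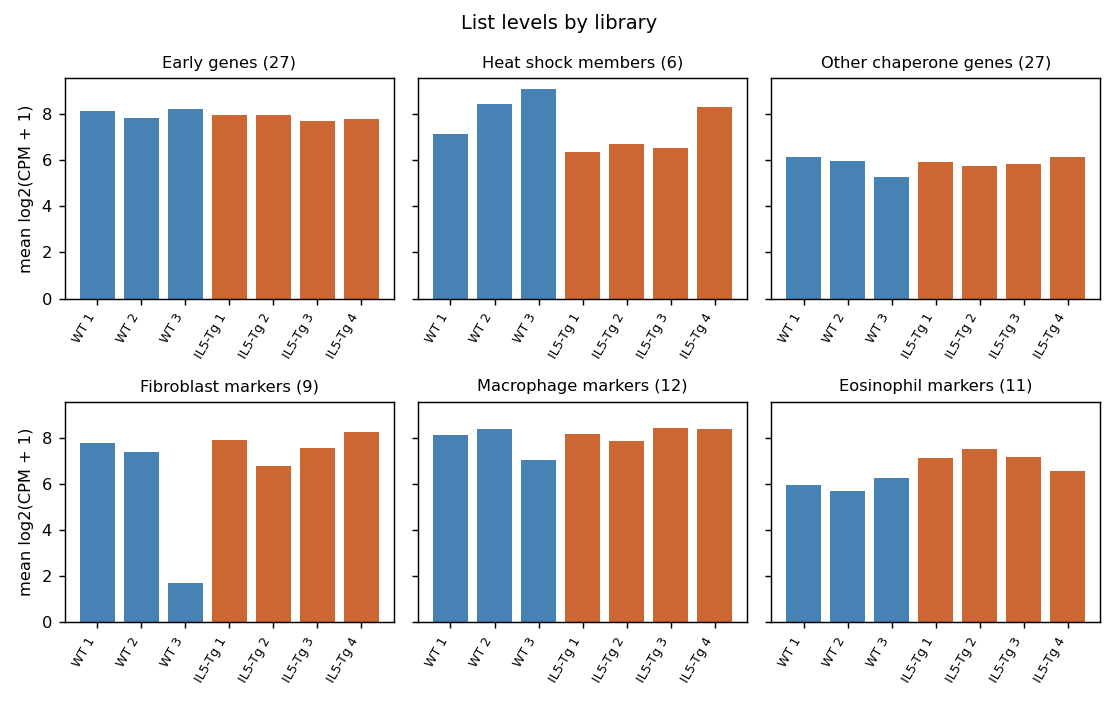
Mean log2(CPM + 1) of 6 gene lists in each of the 7 libraries (WT blue, IL5-Tg orange), on a common axis from 0. The early genes stay near 8 in all libraries, the heat shock genes range from 6.36 to 9.10, and fibroblast markers are low in WT replicate 3 alone.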

How the data were processed

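RNA of sorted cells was sequenced as paired short reads from stranded mRNA libraries, per the labels' protocols. The deposited table holds raw counts by gene symbol, a column for each library; bcl2fastq 2.20, Bowtie and STAR with the mm10 build are named in the submitters' processing notes. Of the counting program, its annotation and its strand setting nothing is stated in these sources. The rows for reads without a gene (9.99% to 19.0% of each library) were left out. The 7 columns were matched to samples by title, and replicate numbers follow accession order and only name a library. No replicate pair of a group agreed within sampling noise (chi-square per gene of 26.0 to 149).

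Counts were tested with edgeR 4.0.16 under R 4.3.3 (quasi-likelihood F test, robust, TMM, filterByExpr on the groups) over all 7 libraries, with genotype as the only term, and adjusted by the Benjamini-Hochberg method over 12428 genes with a threshold of 0.05. Log2 fold changes are IL5-Tg minus WT, and each standard error is the fold change divided by the root of F. CPM use TMM-scaled library sizes. Per-length levels divide by the union of exons in GENCODE vM21. Alternatives were RLE and upper-quartile scaling, DESeq2 1.42.0, limma-voom 3.58.1 with quality weights, 2 other filters, division by the most common low count, summing Hspa1a and Hspa1b, a covariate for markers of other cells, the title start as a block, and each library left out in turn. After the data were seen, WT replicate 3 and IL5-Tg replicate 4 were also left out together, picked on their heat shock values. A fold change counts as having the opposite sign by its value at 2 decimals. The procedure was tested on simulated data. The members and lists were chosen with earlier results of these data known. Values in every library are given for members and pathway genes that passed and for members whose groups do not overlap. They are also given for the 2 or 3 members of highest mean CPM in each class. Beyond that rule they are given for other members chosen after their values were seen. In each pathway list up to 3 genes that passed, or else the 2 with the smallest p, are named, except for a gene that is not reported here. Sequences are from RefSeq on GRCm38.p6, matched by symbol for 28 of 33 genes. Read counts without molecular identifiers are not independent molecules.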

Additional observations from a re-analysis of the deposited data

Results flagged for a closer look

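For 3 of the 33 genes, all heat shock genes, 1 library of the IL5-Tg group stood apart from the other 3 by a gap whose share of the group's range exceeded Dixon's 95% critical value for 4 samples. In each case it was IL5-Tg replicate 4, with 225 CPM of Hspa1a, 378 CPM of Hspa1b and 258 CPM of Dnajb1. Chance flags about 1 in 20 groups, and by this criterion 5.52% of all 12428 tested genes had such a library in the IL5-Tg group. Hspa1a and Hspa1b share most of their sequence, so they do not count as independent cases. The value of Hsp90aa1 in the same library, 649 CPM, fell just short, with a gap of 0.826 of the range. The WT group has 3 libraries and was not examined in this way.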

How the results depend on the processing

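The number of genes that passed over the whole table was 51. It moved to 224 by DESeq2, 22 by limma-voom, 100 with counts divided by the most common low count and 115 with the marker covariate, and ranged from 16 to 97 with 1 library left out. Among the 33 genes 0 passed, but 1 did (Gadd45b) by DESeq2, without the low-count filter and with the divided counts. An alternative chosen after seeing the data left out WT replicate 3 and IL5-Tg replicate 4 together. Its libraries were picked on the measured heat shock values, so its 2 calls (Gadd45b and Hspa1b, of 76 genes in all) are no independent support. The median of the heat shock genes stayed below 0 in all 17 other settings, from -1.90 without IL5-Tg replicate 4 to -0.42 with the title start as a block. That of the early genes lay between -0.24 and -0.02, and at 0.01 in the added one. The causes of these shifts were not tested.

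Under those 17 settings 26 log2 fold changes, of 9 of the 33 genes, took the opposite sign, and 6 did in the added one, none of them past the threshold. With the title start as a replicate block these were Atf3 (0.04), Egr1 (-0.12), Egr2 (-0.12), Egr3 (-0.55), Klf2 (-0.09), Btg1 (0.03) and Hsph1 (0.06). With the marker covariate they were Fosl2 (0.10), Egr2 (-0.12), Klf4 (-0.38) and Btg1 (0.20). By limma-voom they were Egr2 (-0.02), Egr3 (-0.02) and Btg1 (0.06), and with divided counts Egr2 (-0.02). With libraries left out singly the values ranged for Fosl2 from -0.51 to 0.13, for Egr2 from -0.24 to 0.61, for Klf2 from -0.11 to 0.16, for Klf4 from -0.19 to 0.92 and for Btg1 from -0.25 to 0.21. In the added alternative they were Fosl2 (0.10), Egr2 (-0.03), Klf4 (-0.35), Btg1 (0.24), Btg2 (0.06) and Csrnp1 (0.01).

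With the replicate block 52 genes passed and 0 of the 33 did. Only 2 pairs of libraries share a title start across genotypes, and their deviations from the group means correlated at 0.18 and -0.02 across genes, while pairs with different starts ran from -0.40 to 0.54. Whether the start marks a shared batch was not tested. Depth limits Egr2, Egr3 and Dusp2 most, which are among the lowest of the 33.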
